A study of Mus musculus with 30 samples.

Results

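The 10 genes described here are effectors and targets of the Hippo pathway, measured by RNA-Seq in mouse liver. They are the co-activators Yap1 and Wwtr1 (TAZ), the transcription factors Tead1, Tead2 and Tead4, the target genes Ccn2 (older symbol Ctgf), Ccn1 (older symbol Cyr61), Ankrd1 and Amotl2, and the kinase gene Lats2. They were taken by symbol from a gene-level RNA-Seq count table, in which all 10 had 1 row each among 55450 genes, and this rule reads no measured value, although the genes were listed with earlier results of these data known. In the 30 libraries, each from the liver of 1 mouse, all mice carried floxed Cebpa alleles and ate HFCFD, a diet high in fat, cholesterol and fructose. The experiments asked what loss of the hepatocyte transcription factor C/EBPα does at 3 stages of diet-induced liver disease. In HFCFD2W, mice ate the diet for 2 weeks, and knockout came from an albumin-Cre transgene that acts in hepatocytes from development on. In HFCFD8W+T10D and HFCFD12W+T10W, Cre was the tamoxifen-inducible albumin-ERT2-Cre, and tamoxifen was given at the end of the feeding, for 10 days or for 10 weeks. The labels give 8 and 12 weeks of diet, and in HFCFD12W+T10W the diet went on through the 10 weeks of tamoxifen, so that those livers were taken after 22 weeks of HFCFD. Whether the 10 days of HFCFD8W+T10D fall within its 8 weeks is not given in the sources used here. Each experiment had 5 Cre-negative Cebpa fl/fl mice (fl/fl) and 5 Cre-positive mice (knockout, KO), and the labels give both genotypes the same diet and the same tamoxifen treatment. The numbers of the HFCFD2W knockout mice run from 2 to 6. The mice were male on a C57BL/6N background, and their age at sampling is not given in the sources used here. Between HFCFD2W and the other experiments the Cre transgene, tamoxifen and diet time differ at once, and between the latter diet time and tamoxifen time do, so that these cannot be told apart. The albumin promoter is active in hepatocytes and their fetal precursors, and in which cells Cebpa was lost was not measured in these libraries.

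The Hippo pathway is a kinase cascade that senses cell contact, tension and polarity. Its last kinases, LATS1 and LATS2, phosphorylate YAP and TAZ and keep them out of the nucleus. When the cascade is quiet, YAP and TAZ enter the nucleus, bind TEAD factors and switch on genes such as Ccn2, Ccn1, Ankrd1 and Amotl2. Products of some targets, AMOTL2 and LATS2 among them, act back on YAP. In liver the pathway limits organ size, sets the difference between hepatocytes and bile duct cells and takes part in regeneration and scarring. mRNA levels do not show the phosphorylation or the place of YAP and TAZ in the cell.

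Library totals ran from 7996128 to 10257366 counts. Cebpa itself, the targeted gene, was at 177 ± 17.6 CPM (counts relative to the library's size, scaled with edgeR's TMM factors; mean ± SD, n = 5) in fl/fl and 4.74 ± 0.902 CPM in knockout livers of HFCFD2W. The values were 144 ± 13.4 and 17.2 ± 5.92 CPM in HFCFD8W+T10D and 114 ± 23.02 and 21.3 ± 1.98 CPM in HFCFD12W+T10W, with no overlap between the genotypes in any experiment. TMM sets the typical gene to no change, and the factors it needed differed between genotypes: 1.29 to 1.38 in knockout and 0.961 to 1.03 in fl/fl livers of HFCFD12W+T10W, 0.903 to 1.27 and 0.853 to 1.02 in HFCFD8W+T10D, and 0.823 to 0.887 and 0.806 to 0.907 in HFCFD2W. Scaling by library totals alone instead moved the median log2 fold change of all genes up by 0.371, 0.184 and 0.0214 in these experiments, and the share of passing genes that were higher in knockouts from 53.5% to 88.0%, from 60.0% to 84.1% and from 51.5% to 57.7%. Changes below are therefore relative to the typical gene, and the value on library totals is given where the direction or the call depends on it. The livers are mixtures of cells, so that fewer cells of a type and less RNA per cell cannot be told apart in any value below.

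TEAD factors bind DNA at sites with the letters GGAATG, which read CATTCC on the other strand. RefSeq promoters on GRCm38.p6, each 300 bases long from 250 bases before the transcript start, were at hand for 7 of the 10 genes (Yap1, Wwtr1, Tead2, Ccn1, Ankrd1, Amotl2 and Lats2), in 9 entries. These letters stood on either strand in 7 of the 9 entries, those of Yap1, Wwtr1 (both entries, which overlap and share the match), Ccn1, Ankrd1, Amotl2 and the first of the Lats2 entries, and not in Tead2 or the second Lats2 entry. Of all 32851 promoters in the same table, 14.7% held a match and 1.36% held 2 or more. Ankrd1 had 2 matches, which began 210 and 123 bases before the start. Here and below, the start is that of the RefSeq promoter entry. The Ankrd1 and Amotl2 entries lie within the gene spans given below, which begin further upstream. The AP-1 letters TGANTCA, which read the same on both strands, and the C/EBP letters TTGCNNAA were searched for too, on both strands, and occurred in 0 of the 9 entries, so that no match overlapped another, against 7.81% and 10.8% of all promoters. The 3 promoters below are those of the target genes with an entry, each of which passed the genotype test in 1 experiment: Ankrd1 (chr19:36119795-36120094, minus strand), Ccn1 (chr3:145649936-145650235, minus strand) and Amotl2 (chr9:102717554-102717853, plus strand). They are written from 5′ to 3′ along the gene, with GGAATG or CATTCC in capitals.
Ankrd1: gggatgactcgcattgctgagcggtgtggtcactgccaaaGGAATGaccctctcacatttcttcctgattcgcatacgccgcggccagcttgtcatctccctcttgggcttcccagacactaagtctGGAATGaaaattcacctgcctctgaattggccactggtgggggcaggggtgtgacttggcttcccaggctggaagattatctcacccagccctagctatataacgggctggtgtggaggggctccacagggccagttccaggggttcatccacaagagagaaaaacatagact
Ccn1: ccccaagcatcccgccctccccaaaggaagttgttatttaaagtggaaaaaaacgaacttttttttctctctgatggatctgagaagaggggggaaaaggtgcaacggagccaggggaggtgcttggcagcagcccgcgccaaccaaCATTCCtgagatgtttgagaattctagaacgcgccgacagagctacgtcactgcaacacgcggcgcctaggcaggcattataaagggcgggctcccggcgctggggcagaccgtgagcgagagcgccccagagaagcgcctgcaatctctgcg
Amotl2: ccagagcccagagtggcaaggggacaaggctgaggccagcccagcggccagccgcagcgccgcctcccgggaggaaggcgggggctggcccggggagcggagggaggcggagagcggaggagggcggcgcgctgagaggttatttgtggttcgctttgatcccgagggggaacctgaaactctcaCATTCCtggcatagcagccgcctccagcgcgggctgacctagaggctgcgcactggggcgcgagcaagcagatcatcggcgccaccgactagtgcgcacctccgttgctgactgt
A match is a run of letters and not a bound site, since no binding was measured in these livers.

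Levels between genes were compared per transcript length, as RSEM's TPM (a transcript's share of all transcripts in a library), and are described without a test. Yap1 had the highest mean of the 10 genes in 5 of the 6 groups, from 13.4 ± 1.28 TPM (mean ± SD, n = 5) in fl/fl livers of HFCFD2W to 18.8 ± 1.13 TPM in fl/fl livers of HFCFD12W+T10W. Its range stood clear of the next gene, Amotl2, in the 3 fl/fl groups and in HFCFD2W knockouts, and overlapped it in HFCFD8W+T10D knockouts. In knockout livers of HFCFD12W+T10W, Ccn2 was highest with 25.1 ± 3.64 TPM, above Yap1 with 20.2 ± 1.02 TPM and with no shared range, whereas in fl/fl livers of the same experiment Ccn2 had 7.43 ± 2.90 TPM. Below Yap1, neighbours in rank among Amotl2, Wwtr1, Ccn1, Ccn2, Lats2 and Tead2 overlapped in range in most groups, and the order of such neighbours is not settled by these mice. Genes further apart in rank could be separate: Amotl2 stood above Lats2 without shared range in all 6 groups. The closest values were 4.05 TPM for Amotl2 and 3.9 TPM for Lats2, in HFCFD2W knockouts. Tead4 and Ankrd1 were at the bottom in every group, with means of at most 0.388 TPM for Tead4 and 1.97 TPM for Ankrd1, and Ankrd1 was above Tead4 without overlap only in HFCFD12W+T10W knockouts.

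**Figure D1:**
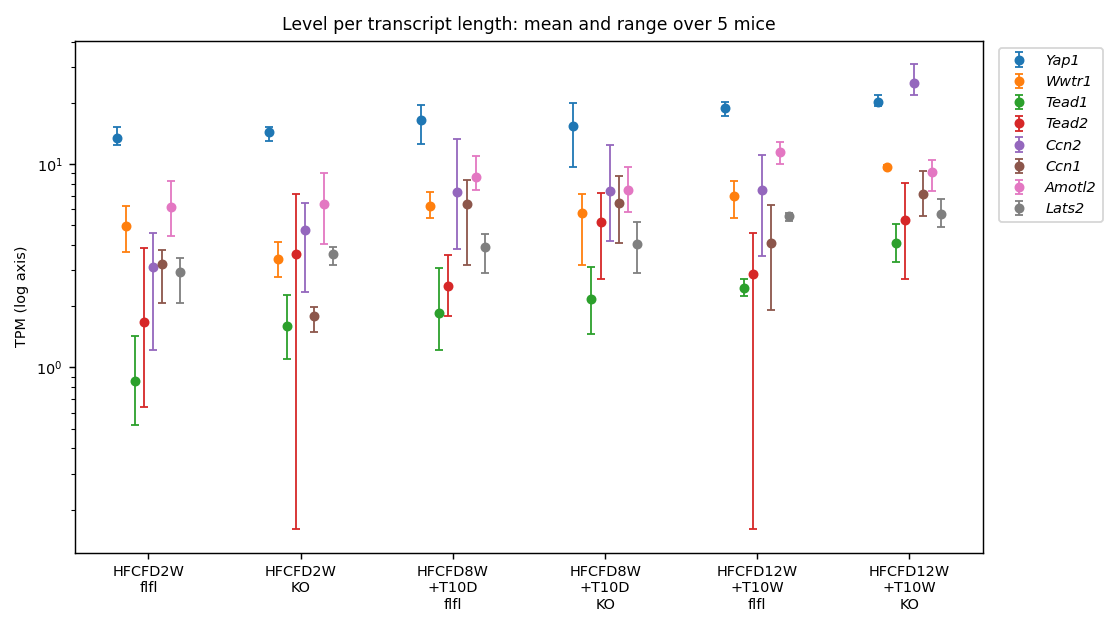
TPM on a log axis of the 8 genes with more than a few counts, in the 6 groups; points are means and bars the range over 5 mice. Yap1 is the highest point in every group but the last, where Ccn2 stands above it at 25.1 TPM.

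After 2 weeks of diet, Wwtr1 and Ccn1 fell and Tead1 rose in knockout livers. In HFCFD8W+T10D only Yap1 passed the test, with a fall that did not pass on library totals (-0.15, adjusted p = 0.538) or without any 1 of 4 mice. In HFCFD12W+T10W, Ankrd1, Ccn2 and Tead1 rose and Amotl2, Lats2 and Yap1 fell, the falls of Lats2 and Yap1 being relative to the typical gene and absent on library totals, where both turned slightly positive (0.02 and 0.12 on the log2 scale, neither passing) and Wwtr1 (0.48) and Ccn1 (0.80) passed as higher. The test was edgeR's quasi-likelihood F test, and passing means a Benjamini-Hochberg adjusted p under 0.05 over all genes tested. In HFCFD2W, 8 of the 10 genes had enough counts to be tested, and 1 was higher and 2 were lower, against 8.6% and 8.09% of all genes. In HFCFD8W+T10D, 0 of the 8 tested genes were higher and 1 was lower, against 10.3% and 6.85%. In HFCFD12W+T10W, 3 of the 9 tested genes were higher and 3 lower, against 27.4% and 23.8% of all genes, and 6 of 9 stood against 51.1% in either direction. With a fold change over 2 as a second condition, 0, 0 and 2 of the genes passed, the 2 being Ankrd1 and Ccn2 in HFCFD12W+T10W, against 3.07%, 6.1% and 17.7% of all genes. The mice of the genotypes did not overlap for 2 of the 8 genes in HFCFD2W, 1 of the 8 in HFCFD8W+T10D and 5 of the 9 in HFCFD12W+T10W, against 12.5%, 11.5% and 39.1% of all genes. The median log2 fold change of the tested genes was 0.12, -0.24 and 0.42, beside 0.00731, 0.0111 and 0.0129 for all genes. The third median was the same with Ankrd1 at its lower bound.

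**Figure D2:**
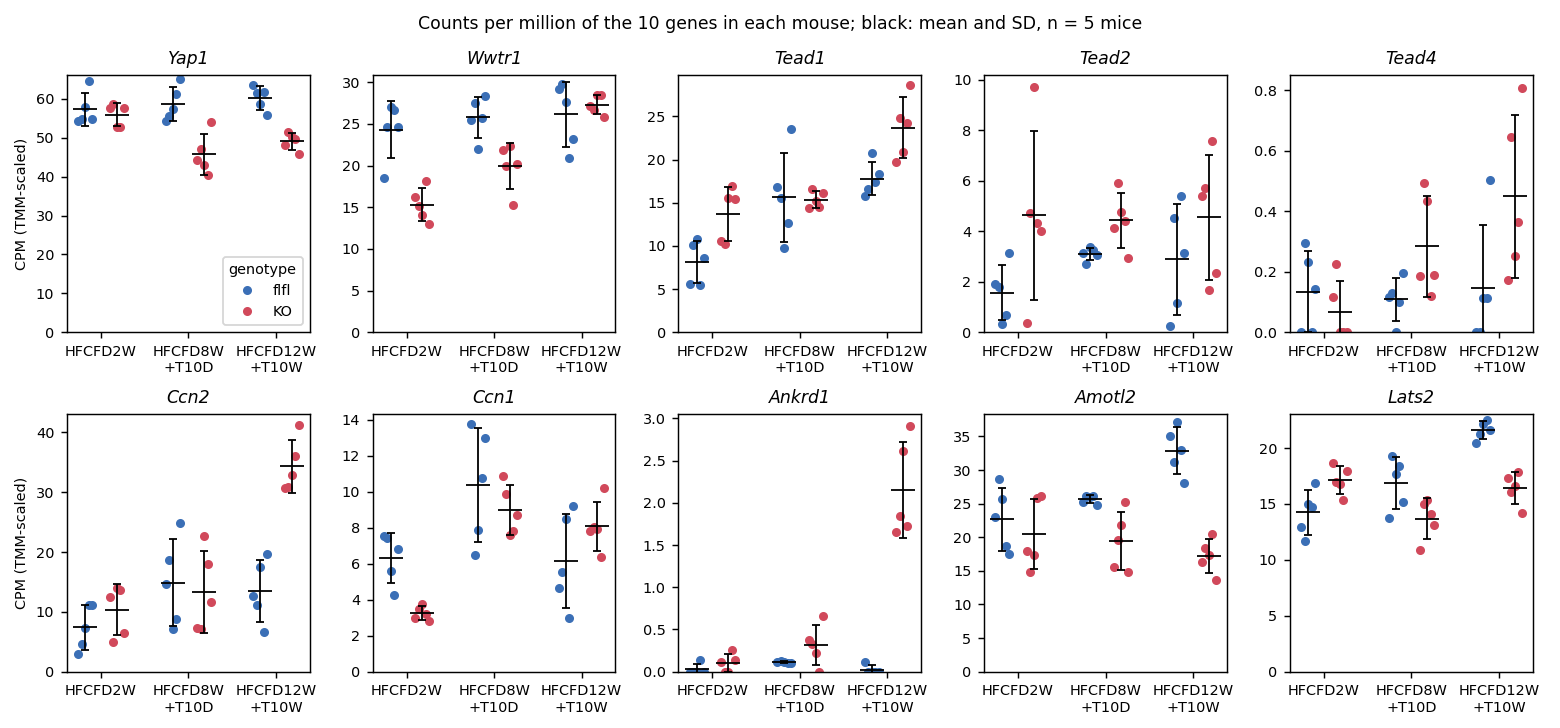
CPM of each of the 10 genes in each mouse (points; fl/fl blue, KO red), with the group mean and SD in black, n = 5 mice; all axes are linear from 0. Ankrd1, at 0 to 0.664 CPM in the other groups, is at 1.65 to 2.91 CPM in HFCFD12W+T10W knockouts, while Yap1 and Lats2 are lower there than in fl/fl livers on this TMM scale but not on library totals.

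Yap1, which encodes the YAP co-activator, lies at chr9:7931999-8004596, minus strand (GRCm38). In HFCFD2W its values were 54.3, 54.9, 57.8, 64.5 and 54.7 CPM in the fl/fl livers and 57.6, 58.8, 52.8, 52.7 and 57.6 CPM in the knockout livers. The genotypes overlapped, with a log2 fold change (knockout over fl/fl) of -0.03 ± 0.0658 (SE; adjusted p = 0.779). In HFCFD8W+T10D, fl/fl livers had 54.3, 55.4, 57.3, 61.1 and 65.0 CPM and knockout livers 44.3, 47.2, 42.9, 40.3 and 53.9 CPM. All 5 knockout mice were below all 5 fl/fl mice, although knockout mouse 5 was only just below the lowest fl/fl mouse. The log2 fold change was -0.34 ± 0.0979 (adjusted p = 0.029), a mean 1.27-fold lower level. It no longer passed without knockout mouse 1 or 3 or fl/fl mouse 4 or 5 (adjusted p from 0.0551 to 0.0740), and on library totals it was -0.15 (adjusted p = 0.538). In HFCFD12W+T10W the fl/fl values were 63.5, 61.5, 58.5, 61.8 and 55.8 CPM and the knockout values 48.2, 51.4, 50.0, 49.7 and 45.9 CPM, again without overlap, and the log2 fold change was -0.25 ± 0.0604 (adjusted p = 0.00362). On library totals this change was 0.12 (adjusted p = 0.107), and the TPM means were 18.8 ± 1.13 in fl/fl and 20.2 ± 1.02 in knockout livers, so that Yap1 mRNA was a little lower relative to the typical gene and no lower as a share of all counts. Yap1 varied least of the 9 genes with an estimate: its biological coefficient of variation within groups was 7.52%, beside a median of 10.4% for the 1362 genes within 0.5 log2 units of its level.

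Wwtr1 encodes TAZ, the partner of YAP, and lies at chr3:57455649-57575910, minus strand. It had 18.5, 24.6, 27.03, 26.6 and 24.7 CPM in fl/fl and 16.2, 15.1, 14.04, 18.1 and 13.02 CPM in knockout livers of HFCFD2W. All knockout mice were below all fl/fl mice, also below fl/fl mouse 1, which was the lowest of its group by a wide gap. Wwtr1 fell by 0.66 ± 0.12 on the log2 scale (1.59-fold, adjusted p = 0.00245), it passed with each of the 10 mice left out (-0.75 to -0.61), and on library totals the change was -0.64. In HFCFD8W+T10D the levels were 25.8 ± 2.44 CPM in fl/fl and 19.9 ± 2.79 CPM in knockout livers, with all 5 knockout mice below the fl/fl median. The log2 fold change of -0.36 ± 0.12 missed the threshold (adjusted p = 0.0537) and passed in DESeq2 (0.0273), in limma on the authors' CPM, with relative log expression size factors and without fl/fl mouse 3. On library totals Wwtr1 did not pass in this experiment. In HFCFD12W+T10W the values were 20.9 to 29.8 CPM in fl/fl and 25.8 to 28.4 CPM in knockout livers. The genotypes overlapped there (0.11 ± 0.0973, adjusted p = 0.385), whereas on library totals Wwtr1 was higher by 0.48 (adjusted p = 0.00144).

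The TEAD factors are the DNA-binding partners of YAP and TAZ. Tead1 (chr7:112679318-112906807, plus strand) was at 5.63, 10.1, 10.8, 5.51 and 8.65 CPM in fl/fl and 10.5, 10.2, 15.5, 16.98 and 15.4 CPM in knockout livers of HFCFD2W. All 5 knockout mice were above the fl/fl median, but the highest fl/fl mouse reached the lowest knockout mice. Tead1 rose 1.67-fold (log2 fold change 0.74 ± 0.21, adjusted p = 0.0316), and this no longer passed without fl/fl mouse 1, 4 or 5 or knockout mouse 4, 5 or 6 (adjusted p from 0.0561 to 0.0736), nor in limma on the authors' CPM (0.0525 and 0.0553 with pseudocounts of 1 and 0.25). In HFCFD8W+T10D, fl/fl livers spread from 9.72 to 23.5 CPM around knockout livers at 14.4 to 16.6 CPM, and the log2 fold change was -0.01 ± 0.19 (adjusted p = 0.969). In HFCFD12W+T10W the fl/fl values were 15.8, 16.6, 20.8, 17.4 and 18.4 CPM and the knockout values 19.7, 24.8, 20.9, 24.2 and 28.7 CPM. Tead1 rose by 0.45 ± 0.11 on the log2 scale (adjusted p = 0.00453), with all 5 knockout mice above the fl/fl median and fl/fl mouse 3 within the knockout range. On library totals the rise was 0.83, and in a fit of all 30 libraries together it was 0.41 with an adjusted p of 0.0538.

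Tead2 (chr7:45215753-45233644, plus strand) had mean levels of 1.57 to 4.63 CPM over the 6 groups and the widest spread of the 9 genes with an estimate. In HFCFD2W its values were 1.93, 1.78, 0.349, 0.689 and 3.12 CPM in fl/fl and 0.355, 4.71, 9.72, 4.34 and 4.03 CPM in knockout livers, a log2 fold change of 1.57 ± 0.62 that did not pass (adjusted p = 0.101). Knockout mouse 2, with 3 counts, stood far below the other 4, and without it the difference was 1.88 with an adjusted p of 0.0156. In HFCFD8W+T10D, fl/fl livers were close together at 2.71 to 3.36 CPM and knockout livers ranged over 2.94 to 5.92 CPM. The log2 fold change was 0.53 ± 0.20 (adjusted p = 0.0876), and it passed without knockout mouse 5 (0.0250). In HFCFD12W+T10W the values of both genotypes spread over 0.237 to 5.39 and 1.69 to 7.56 CPM (0.68 ± 0.55, adjusted p = 0.324). The within-group coefficient of variation of Tead2 was 58.3%, beside a median of 18.3% for genes of similar level. Tead2 overlaps Cd37, a leukocyte gene on the other strand, whose means were 0.845 to 3.44 CPM. The libraries came from a stranded kit, but the strand setting of the counting is not given in the sources used here, and the share of Cd37 reads in the Tead2 values was not tested.

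Tead4 (chr6:128224288-128300823, minus strand) had between 0 and 10 counts in any library and was filtered out in all 3 experiments. In HFCFD12W+T10W its counts were 0, 0, 1, 1 and 5 in fl/fl and 2, 7, 3, 4 and 10 in knockout livers. A two-sided exact permutation test of mean log2 CPM over the 252 arrangements of 10 mice gave p = 0.0635 there, 0.0714 in HFCFD8W+T10D and 0.365 in HFCFD2W, where 0.00794 is the smallest p such a test allows. No difference in Tead4 was detectable at this depth, and no fold is given.

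Ccn2, also known as CTGF, encodes a secreted matricellular protein of fibrotic tissue and is the most used readout of YAP and TEAD activity. It lies at chr10:24595442-24598683, plus strand. In HFCFD12W+T10W its values were 12.6, 11.2, 17.4, 6.65 and 19.7 CPM in fl/fl livers and 30.7, 30.9, 32.8, 36.1 and 41.2 CPM in knockout livers. Every knockout liver was above every fl/fl liver, the closest being 30.7 and 19.7 CPM. Ccn2 rose 2.61-fold (log2 fold change 1.38 ± 0.22, adjusted p = 0.00018), it passed with each mouse left out (1.19 to 1.55), and the rise was 1.75 on library totals. In HFCFD2W the values were 2.96, 4.60, 7.34, 11.2 and 11.2 CPM in fl/fl and 12.5, 5.05, 14.04, 13.7 and 6.44 CPM in knockout livers, and in HFCFD8W+T10D they were 14.7, 18.7, 7.18, 8.73 and 24.9 CPM and 7.30, 7.07, 22.7, 18.01 and 11.7 CPM. In both, mice of 1 genotype differed from each other several-fold and the genotypes overlapped. The log2 fold changes were 0.46 ± 0.36 (adjusted p = 0.412) and -0.15 ± 0.38 (adjusted p = 0.827). The within-group coefficient of variation of Ccn2 was 39.3%, above that of 98.1% of the genes of similar level.

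Ccn1, also known as CYR61, encodes a secreted protein related to that of Ccn2, and lies at chr3:145646976-145649981, minus strand. Its values were 7.56, 7.41, 5.59, 4.27 and 6.81 CPM in fl/fl livers and 2.96, 3.48, 3.78, 3.19 and 2.82 CPM in knockout livers of HFCFD2W. No knockout liver reached the lowest fl/fl liver, and the knockout livers lay close together. Ccn1 was 1.94-fold lower (log2 fold change -0.95 ± 0.18, adjusted p = 0.00361) and passed with each mouse left out (-1.07 to -0.89). In HFCFD8W+T10D the levels were 10.4 ± 3.16 CPM in fl/fl and 8.97 ± 1.38 CPM in knockout livers (-0.20 ± 0.20, adjusted p = 0.563). In HFCFD12W+T10W they were 4.63, 5.55, 8.49, 2.98 and 9.18 CPM and 7.84, 8.03, 7.93, 6.38 and 10.2 CPM. All 5 knockout mice were above the fl/fl median and fl/fl mice 3 and 5 lay within the knockout range, with a log2 fold change of 0.42 ± 0.25 (adjusted p = 0.178). On library totals this became 0.80 (adjusted p = 0.0178). The promoter of Ccn1 printed above holds CATTCC 103 bases before the start, as 1 match.

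Ankrd1 encodes an ankyrin repeat protein best known from stressed heart muscle, and it is a common YAP readout in other cells. It lies at chr19:36111961-36120099, minus strand. In the fl/fl livers of HFCFD12W+T10W its counts were 1, 0, 0, 0 and 0, and in the knockout livers they were 19, 20, 31, 19 and 36. Scaled, the knockout livers had 1.65, 1.85, 2.62, 1.73 and 2.91 CPM, and all 5 stood apart from the fl/fl livers. Since all 5 fl/fl libraries held at most 3 counts, which is taken as the detection floor per library, the rise is given as a lower bound: Ankrd1 was at least 6.38-fold higher in knockout livers (adjusted p = 2.6e-06), and it passed with each mouse left out. In HFCFD8W+T10D the fl/fl livers had 1, 1, 1, 1 and 1 counts and the knockout livers 4, 4, 2, 0 and 7, and in HFCFD2W they had 0, 0, 0, 1 and 0 and 1, 0, 0, 2 and 1. In both the gene was filtered out, no fold is given, and the exact permutation p was 0.127 and 0.405. Knockout livers of HFCFD12W+T10W were thus the only group in which any liver had more than 7 counts of Ankrd1, and even there its level was 1.97 ± 0.529 TPM, against 25.1 ± 3.64 TPM for Ccn2. Its promoter is the only one of the 9 with GGAATG in 2 places.

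Amotl2 encodes a scaffold of the angiomotin family, which holds YAP at cell junctions and is itself a YAP target. It lies at chr9:102716672-102733418, plus strand. In HFCFD12W+T10W, where Ccn2 and Ankrd1 rose, Amotl2 went the other way: fl/fl livers had 35.02, 31.2, 37.2, 32.9 and 28.05 CPM and knockout livers 16.3, 18.4, 17.4, 20.4 and 13.6 CPM. No knockout liver reached the lowest fl/fl liver. Amotl2 fell 1.85-fold (log2 fold change -0.89 ± 0.11, adjusted p = 3.1e-05), it passed with each mouse left out (-0.96 to -0.81), and it stayed lower on library totals (-0.52, adjusted p = 0.000661). In HFCFD8W+T10D the fl/fl livers were within 24.8 to 26.1 CPM, while the knockout livers had 15.5, 19.6, 21.8, 25.2 and 14.9 CPM. All knockout mice were below the fl/fl median, but mouse 4 overlapped the fl/fl livers, and the log2 fold change of -0.39 ± 0.14 did not pass (adjusted p = 0.0644). Without mouse 4 it was -0.51 and passed (0.0127). In HFCFD2W the genotypes overlapped (-0.15 ± 0.18, adjusted p = 0.602). The promoter printed above has CATTCC 65 bases before the start.

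Lats2 encodes a kinase that inhibits YAP and TAZ, and lies at chr14:57689662-57758388, minus strand. In HFCFD12W+T10W its values were 20.4, 21.3, 22.2, 22.5 and 21.6 CPM in fl/fl and 17.3, 16.1, 16.6, 17.9 and 14.2 CPM in knockout livers, without overlap. Relative to the typical gene Lats2 fell by 0.35 ± 0.0793 on the log2 scale (adjusted p = 0.00249), whereas on library totals the difference was 0.02 (adjusted p = 0.844). In HFCFD8W+T10D the means were 16.9 ± 2.30 CPM in fl/fl and 13.7 ± 1.82 CPM in knockout livers (-0.28 ± 0.13, adjusted p = 0.155). In HFCFD2W they were 14.3 ± 2.00 and 17.1 ± 1.28 CPM, with all 5 knockout mice above the fl/fl median, and the difference did not pass (0.26 ± 0.11, adjusted p = 0.104).

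**Figure D3:**
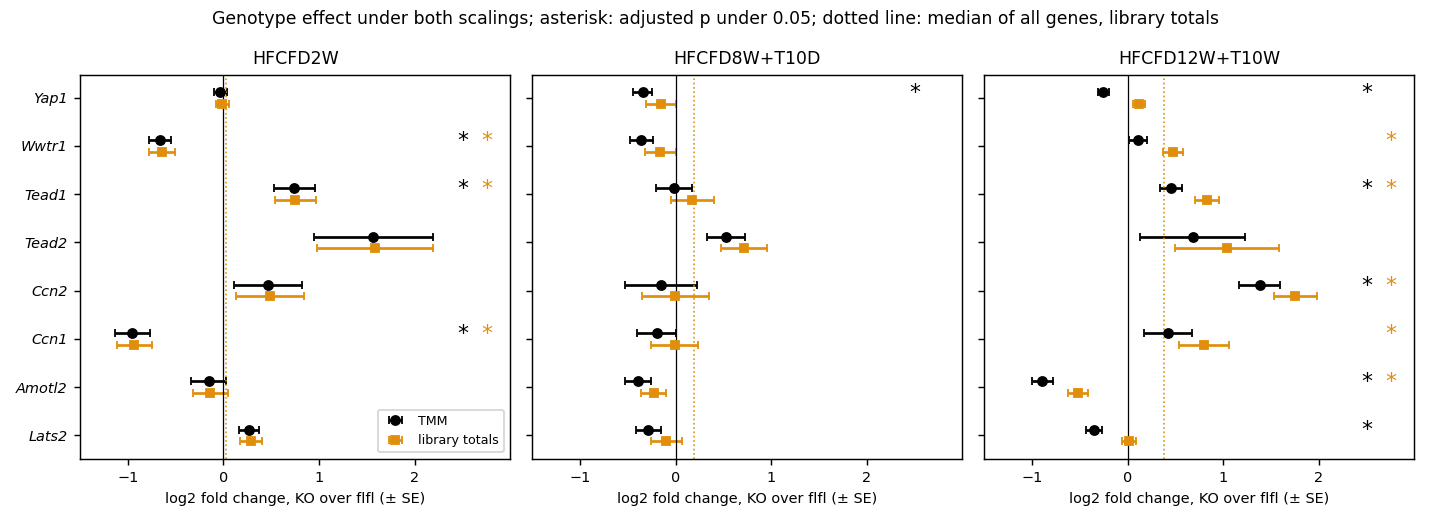
Log2 fold change (knockout over fl/fl, ± SE) of the 8 genes with enough counts, one panel per experiment with n = 5 and 5 mice, scaled by TMM (black circles) and by library totals (orange squares); asterisks mark an adjusted p under 0.05 and the dotted line is the median of all genes on library totals. In HFCFD2W the scalings nearly coincide, while in HFCFD12W+T10W all 8 points shift up on library totals and those of Yap1 (-0.25 to 0.12) and Lats2 (-0.35 to 0.02) cross 0.

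Whether the genotype effect itself differed between experiments was tested as an interaction in 1 fit of all 30 libraries. Between HFCFD12W+T10W and HFCFD2W, 5 of the 9 tested genes passed, against 30.7% of all genes. Ccn2, with 0.88 (SE 0.52, adjusted p = 0.207), and Ankrd1 (adjusted p = 0.127) were not among them. The effect was more positive after the long experiment for Ccn1, by 1.34 (SE 0.34, adjusted p = 0.00346) on the log2 scale, and for Wwtr1, by 0.73 (SE 0.16, adjusted p = 0.000977). It was more negative for Amotl2, by -0.78 (SE 0.22, adjusted p = 0.00737), for Lats2, by -0.66 (SE 0.15, adjusted p = 0.00112), and for Yap1, by -0.26 (SE 0.10, adjusted p = 0.0487). On library totals only the differences of Ccn1 (1.73) and Wwtr1 (1.12) still passed, and that of Yap1 turned to 0.13. Between HFCFD12W+T10W and HFCFD8W+T10D, 2 of 9 passed, against 10.5%: Ccn2, with 1.51 (SE 0.49, adjusted p = 0.0468), and Ankrd1 (adjusted p = 0.014), for which no size is given because its fl/fl livers were at the floor. Between HFCFD8W+T10D and HFCFD2W, 2 of 8 passed, against 11.2%: Lats2, with -0.56 (SE 0.15, adjusted p = 0.0127), and Yap1, with -0.32 (SE 0.10, adjusted p = 0.0363), and neither passed on library totals (-0.38 and -0.14). Leaving out 1 mouse at a time among the 20 of each comparison, the Yap1 difference was lost in 11 of 20 (HFCFD8W+T10D minus HFCFD2W) and 17 of 20 (HFCFD12W+T10W minus HFCFD2W), and that of Ccn2 in 14 of 20, with adjusted p of at most 0.0716, 0.129 and 0.118, while those of Ccn1, Wwtr1, Amotl2, Lats2 and Ankrd1 passed in all. Of all passing genes, 43.6%, 47.5% and 39.6% were more positive in these 3 comparisons, which became 61.6%, 66.5% and 52.6% with upper quartile scaling and 87.0%, 83.4% and 77.0% on library totals.

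The fl/fl livers describe the same genes with Cebpa intact. Between HFCFD8W+T10D and HFCFD2W, where diet time, tamoxifen, mice and experiment differ together, 3 of 8 genes passed, all higher at the later time, against 43.6% of all genes. Tead1 was higher by 0.94 (SE 0.20, adjusted p = 0.000348) on the log2 scale, Ccn2 by 0.99 (SE 0.38, adjusted p = 0.037) and Ccn1 by 0.72 (SE 0.23, adjusted p = 0.011). The groups overlapped for all 3 genes, and the Ccn2 difference was lost without fl/fl mouse 1, 2 or 5 of HFCFD8W+T10D or 1, 2 or 3 of HFCFD2W. Between HFCFD12W+T10W and HFCFD8W+T10D, 2 of 8 genes passed, against 11.4%. Lats2 was higher by 0.36 (SE 0.10, adjusted p = 0.02) and Ccn1 lower, with -0.75 (SE 0.22, adjusted p = 0.0268). Lats2 was lost without fl/fl mouse 1 or 5 of HFCFD8W+T10D, and Ccn1 without these or without fl/fl mouse 1, 2 or 4 of HFCFD12W+T10W, and on library totals (adjusted p = 0.0665). The share of passing genes that were higher was 50.8% and 55.2% in these comparisons, 76.2% and 67.9% on library totals, and 45.0% in the second with upper quartile scaling. Yap1 stayed within 57.2 to 60.2 CPM on average in all 3 fl/fl groups and passed in neither comparison.

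Of 30 other Hippo pathway genes, 28, 28 and 29 were tested. In HFCFD2W, 2 were higher and 1 was lower, 3 were higher and 1 lower in HFCFD8W+T10D, and HFCFD12W+T10W had 11 higher and 3 lower, against 16.7%, 17.1% and 51.1% of all genes passing in either direction. Their medians of 0.06, 0.08 and 0.09 on the log2 scale were close to those of all genes. Map4k4, a kinase gene upstream of LATS, was higher in knockouts in all 3 experiments (0.70 ± 0.15, 0.75 ± 0.18 and 1.43 ± 0.19). Fat1, which encodes a giant protocadherin, fell in HFCFD2W (-1.48 ± 0.12, adjusted p = 7.2e-06) and rose in HFCFD12W+T10W (0.93 ± 0.18, adjusted p = 0.00105). Amot, the founding member of the family of Amotl2, rose by 1.38 ± 0.11 in HFCFD12W+T10W (adjusted p = 7.9e-07) and by 0.91 ± 0.18 in HFCFD8W+T10D, opposite in direction to the fall of Amotl2 in HFCFD12W+T10W. Among the genes with the largest changes in HFCFD12W+T10W were also Ajuba, which encodes a LIM protein that inhibits LATS (1.62 ± 0.18), and the cadherin gene Fat4 (1.52 ± 0.28). Mob1b, which encodes an activator of LATS kinases, fell in HFCFD8W+T10D (-0.42 ± 0.11), but on library totals its change of -0.23 did not pass (adjusted p = 0.372). On library totals the HFCFD12W+T10W count became 23 higher and 0 lower.

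Of 17 other genes listed as YAP and TEAD targets, 14, 14 and 15 were tested. In HFCFD2W, 0 were higher and 3 lower, against 8.6% and 8.09% of all genes, with a median of -0.12, and the largest fall was that of Gadd45a, a DNA damage response gene (-2.78 ± 0.44, adjusted p = 0.00106). The knockout mean of Gadd45a was 0.454 ± 0.294 CPM, near the detection floor, so that the size of its fall is uncertain. In HFCFD8W+T10D, 2 were higher and 0 lower, against 10.3% and 6.85% of all genes (median 0.18), and the receptor tyrosine kinase gene Axl rose by 0.91 ± 0.20 (adjusted p = 0.00944). HFCFD12W+T10W had 11 higher and 0 lower, against 27.4% and 23.8% of all genes, and a median of 1.24 beside 0.0129 for all genes. The largest rises were those of Tgfb2, which encodes a fibrogenic cytokine (3.54 ± 0.44), Myof, a membrane repair gene (2.67 ± 0.17), Ccdc80, a matrix protein gene (2.55 ± 0.15), and the phosphatase gene Ptpn14 (2.06 ± 0.19), with adjusted p of 3.2e-05 and below. The fl/fl mean of Tgfb2 was 0.300 ± 0.312 CPM, near the detection floor, so that the size of its rise is uncertain. The letters GGAATG or CATTCC stood in 3 of the 12 (25%) RefSeq promoters at hand for these genes, those of Axl, Crim1 and Ptpn14, and in 10 of 28 (35.7%) of those of the other Hippo pathway genes.

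**Figure D4:**
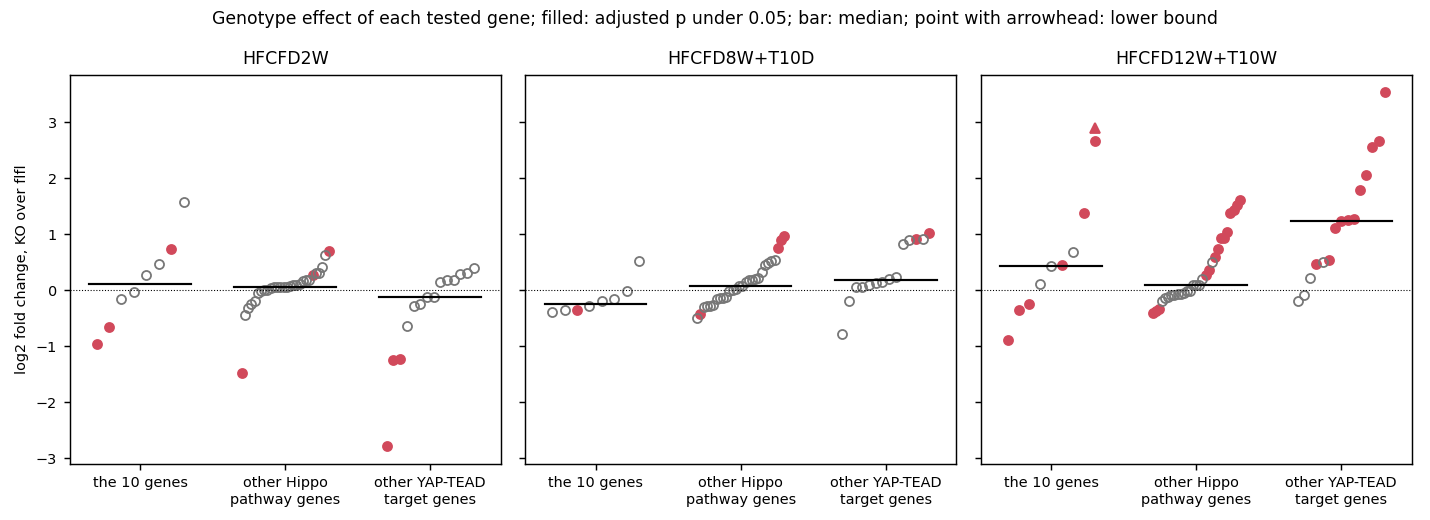
Log2 fold change (knockout over fl/fl) of every tested gene of the 10 described here and of the 2 lists of related genes, one panel per experiment; filled points passed (adjusted p under 0.05), bars are medians and the arrowhead marks Ankrd1, plotted at its lower bound. In HFCFD12W+T10W the bar of the other YAP-TEAD target genes is at 1.24 and that of the other Hippo pathway genes at 0.09.

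Markers of other liver cells were counted in the same way, with all sums and calls on the TMM scale only. In HFCFD12W+T10W, 27.4% of all genes were higher and 23.8% lower, in HFCFD8W+T10D 10.3% and 6.85%, and in HFCFD2W 8.6% and 8.09%. In HFCFD12W+T10W the stellate cell and fibroblast markers had 12 of 14 tested genes higher and 1 lower, and their summed level was 463 to 583 CPM in fl/fl livers and 1494 to 1860 CPM in knockout livers. The cholangiocyte markers had 10 of 11 tested genes higher and 1 lower, with sums of 13.8 to 23.4 CPM in fl/fl livers and 74.4 to 118 CPM in knockout livers. The lymphocyte markers had 5 of 6 tested genes higher and 0 lower, the macrophage markers 6 of 10 tested genes higher and 2 lower and the endothelial markers 1 of 12 tested genes higher and 2 lower, and 0 of 2 tested mesothelial markers passed. The hepatocyte markers, Alb, Apoa1 and Ttr among them, had 0 of 9 tested genes higher and 3 lower, which were Alb, Cps1 and Fgb. All 9 summed to 113572 to 139140 CPM in fl/fl livers and 76476 to 84562 CPM in knockout livers, so that the labelled tissue, liver, carried its defining mRNAs. Much of the lower sum was Alb, with means of 77476 and 35044 CPM beside mean sums of 126034 and 81670 CPM. The TMM factors of 1.29 to 1.38 in knockout and 0.961 to 1.03 in fl/fl livers lower the CPM of knockout livers. The sums of the genotypes therefore differ less as a share of all counts, and small falls among the markers may not hold on library totals. The median log2 fold change of the 9 genes was -0.05, and Apoa1 (-0.03) and Ttr (0.13) did not pass. In HFCFD8W+T10D the stellate markers had 3 of 14 tested genes higher and 0 lower with sums of 529.7 to 843 CPM in fl/fl livers and 761 to 1421 CPM in knockout livers, the macrophage markers 6 of 10 tested genes higher and 0 lower, the cholangiocyte markers 3 of 7 tested genes higher and 1 lower and the hepatocyte markers 0 of 9 tested genes higher and 2 lower. In HFCFD2W, 1 of 14 stellate and 2 of 8 macrophage markers were higher, and 0 of 9 hepatocyte and 0 of 2 tested cholangiocyte markers passed. The Wwtr1 and Ccn1 falls and the Tead1 rise of HFCFD2W came with 1 passing stellate and 0 passing hepatocyte or tested cholangiocyte markers. In HFCFD12W+T10W most stellate and cholangiocyte markers were higher. There Ccn2, Ankrd1 and Tead1 rose, while Amotl2 and, on the TMM scale only, Lats2 and Yap1 fell. The part of these cell types in the values of the 10 genes was not tested.

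The genes most like each member that passed in any experiment over the 30 libraries were found by the smallest root mean square difference of centred log2 CPM among 12964 genes. For Ccn2 they were Lhfp (0.484) and Pamr1 (0.491), for Ankrd1 Ap1m2 (0.371) and Itgb6 (0.389) and for Ccn1 Dusp10 (0.362) and Fhl1 (0.378). For Yap1 they were Zhx1 (0.0890) and Pdpk1 (0.105), for Wwtr1 Plcl2 (0.200) and Stag1 (0.208) and for Tead1 Idh2 (0.302) and Pkd2 (0.303). For Amotl2 they were AC117816.1 (0.188) and A1cf (0.231), and for Lats2 Dennd5b (0.158) and Cgnl1 (0.170). Among the members, Yap1 and Lats2 were each other's nearest (0.232 log2 units). This distance was above the SD of Yap1 itself over the 30 libraries (0.171) and below that of Lats2 (0.256). Libraries of 1 group share diet, genotype and experiment, so these distances describe the pattern over the 6 groups and are given without a test.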

How the data were processed

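Poly(A) RNA from 30 mouse livers was sequenced. Per the submitters' processing notes, the authors used Trimmomatic 0.36, STAR 2.5.1, Picard 1.84, RSEM 1.2.22 and DESeq2, with mm10. They deposited RSEM expected counts, RSEM TPM and CPM after TMM scaling (15010 genes, a normalised expression signal, used only in limma). All 55450 gene identifiers match GENCODE M21. Of the expected counts, 3.25% were not whole and were rounded, none of them in the 10 genes. Deposited FPKM were not used.

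Genotypes were compared within each experiment with edgeR 4.0.16 (R 4.3.3) by quasi-likelihood, after its filter on low counts (grouped by genotype) and TMM scaling, with Benjamini-Hochberg adjustment over the 11068, 11990 and 12463 genes left. Differences between experiments used 1 fit of all libraries (12964 genes). CPM were scaled over all 30 libraries, and log2 values for gene similarity used a prior count of 2. DESeq2 1.42.0 and limma 3.58.1 (pseudocounts 1 and 0.25) served as alternatives, and scripts were tested on simulated data. Counts of 3 per library were taken as the floor. For each list and comparison, up to 4 passing genes without overlap, with the largest change and a mean of at least 1 CPM in either genotype, are named from the related lists. Of each passing member the 2 most similar genes are named. Fat1 in HFCFD12W+T10W, Cd37, Crim1, Apoa1 and Ttr were named after their values were seen. Replicates are labelled as biological, so p-values measure the spread between mice. The members and lists were chosen with earlier results of these data known. Scaling by library totals was added after seeing the data.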

Additional observations from a re-analysis of the deposited data

Results flagged for a closer look

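Wwtr1 in fl/fl mouse 1 of HFCFD2W, with 18.5 CPM, stood below the other 4 mice at 24.6 to 27.03 CPM. On the log2 CPM scale, which this check used, the gap was 0.752 of the group's range, above Dixon's 95% critical value of 0.71. Ankrd1 had a gap of 1 of the range in fl/fl mouse 4 of HFCFD2W and in fl/fl mouse 1 of HFCFD12W+T10W, in each case from 1 count where the other 4 mice had 0. These were 3 of 60 groups of 5 mice. Chance gives about 1 in 20 for continuous values, but a single count among mice with 0 always gives a gap of 1 of the range. The rate therefore does not hold for groups near the floor, and no expected number is given.

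The genotype effect differed between experiments by the interaction test for 9 pairs of gene and comparison. For HFCFD8W+T10D minus HFCFD2W the log2 differences were -0.32 for Yap1 and -0.56 for Lats2. For HFCFD12W+T10W minus HFCFD8W+T10D they were 1.51 for Ccn2 and, as a fitted value that depends on the prior count and is no bound, 4.45 for Ankrd1. For HFCFD12W+T10W minus HFCFD2W they were -0.26 for Yap1, 0.73 for Wwtr1, 1.34 for Ccn1, -0.78 for Amotl2 and -0.66 for Lats2. With library totals as the scaling, 4 of the 9 still passed: both differences from HFCFD8W+T10D to HFCFD12W+T10W, and those of Wwtr1 and Ccn1.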

How the results depend on the processing

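In HFCFD12W+T10W, 6 of the 10 genes passed with each mouse left out. The joint fit passed 5, without Tead1, and library totals also passed 6, having lost Yap1 and Lats2 and gained Wwtr1 and Ccn1. A required fold change over 2 left 2, and of the other Hippo pathway genes 5 passed by the fold rule and 23 on library totals, in place of 14. Library totals turned the direction of Yap1 (0.12) and Lats2 (0.017) in HFCFD12W+T10W, of Tead1 in HFCFD8W+T10D (0.18), and of the differences between genotype effects of Lats2 (0.11, HFCFD12W+T10W minus HFCFD8W+T10D), Yap1 (0.13) and Tead1 (0.075, both HFCFD12W+T10W minus HFCFD2W), and it follows by construction that values shift up there, since the TMM factors of knockout livers are higher. The counts of genes passing became 0 in HFCFD8W+T10D, 0, 3 and 2 for the differences between genotype effects (HFCFD8W+T10D minus HFCFD2W, HFCFD12W+T10W minus HFCFD8W+T10D, HFCFD12W+T10W minus HFCFD2W), and 5 and 1 between fl/fl groups.

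In HFCFD8W+T10D, 1 gene passed, against 2 with relative log expression size factors, 2 in DESeq2, 2 and 2 in limma with either pseudocount and 4 in the joint fit, which also passed 8 of the other Hippo pathway genes. The fold rule left 0 genes in HFCFD2W and 0 in HFCFD8W+T10D, 1 and 0 of the other Hippo pathway genes, and 1 other target gene in HFCFD8W+T10D. With an adjusted p under 0.01, 0 genes passed in HFCFD8W+T10D, 1 other Hippo gene there, 1 other target gene in HFCFD2W and 1 in HFCFD8W+T10D, 0 and 0 differences from HFCFD8W+T10D (to HFCFD2W and HFCFD12W+T10W), and 1 and 0 differences between fl/fl groups. For HFCFD8W+T10D minus HFCFD2W, 1 difference passed with no filter on low counts and 1 with upper quartile scaling, in place of 2. The cause was not tested for these.

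With 1 mouse left out, the 10 genes gave 2 to 4, 0 to 2 and 6 to 6 passing genes in the 3 experiments in order of time, the other Hippo pathway genes 2 to 5, 3 to 4 and 12 to 14, and the other target genes 2 to 4, 2 to 3 and 11 to 11. Differences between genotype effects gave 1 to 3 (HFCFD8W+T10D minus HFCFD2W), 1 to 3 and 4 to 5, and those between fl/fl groups 2 to 4 and 0 to 2. Directions that turned belong to differences that did not pass: over these fits Yap1 in HFCFD2W ran from -0.056 to 0.0086, Tead1 in HFCFD8W+T10D from -0.15 to 0.18, Ccn2 in HFCFD8W+T10D from -0.44 to 0.12, and the Tead2 difference of HFCFD12W+T10W minus HFCFD8W+T10D from -0.17 to 0.49. Between the fl/fl groups of these experiments Wwtr1 ran from -0.035 to 0.090, Tead2 from -0.44 to 0.18 and Ccn2 from -0.31 to 0.15. With upper quartile scaling, Tead1 in HFCFD8W+T10D was 0.020 and the fl/fl difference of Wwtr1 -0.018, and limma gave 0.022 and 0.026 for Tead1 in HFCFD8W+T10D.

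The replicate numbers showed no sign of pairing the mice: over 2000 genes, deviations of same-numbered mice correlated with r from -0.21 to 0.0512 over 4 pairs in HFCFD2W, from -0.0854 to 0.116 over 5 pairs in HFCFD8W+T10D and from -0.0888 to 0.116 over 5 pairs in HFCFD12W+T10W, and 1, 1 and 0 mice correlated best with their own number. So few pairs cannot exclude that some mice were paired. A block on the replicate number left 1, 1 and 6 of the 10 genes passing, 1, 4 and 12 of the other Hippo pathway genes and 1, 3 and 11 of the other target genes, and in HFCFD2W Tead1 (0.59, adjusted p = 0.228) and Ccn1 (-0.82, adjusted p = 0.0836) no longer passed. Tead1 in HFCFD8W+T10D was 0.032 with the block.

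Depth limits Tead4 and, outside HFCFD12W+T10W knockouts, Ankrd1, where a library held 0 to 10 counts. Over all alternatives, 1184 values of single genes kept direction and side of the threshold, 30 passed only under the alternative, 81 no longer passed and 28 changed direction.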
